A study of Mus musculus with 12 samples.

Results

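Nuclei titled Early were compared with nuclei titled Basal, in 3 libraries each of mouse hippocampus. The 6 libraries, of 12 in the series, were chosen by their titles, and the comparison covered those 15668 of the 24015 genes in the table whose count reached 10 in 3 or more of the 12 libraries. The study measured nuclear RNA in neurons of a fear memory, to set gene expression beside chromatin data. All mice carried ArcCreERT2, a Cre recombinase driven by the Arc gene that works only when tamoxifen is present, and R26R-STOP-floxed-eYFP, a yellow fluorescent reporter that this Cre switches on. Their genotype is given as +/+ and their age is not given in the labels. Per the protocols, mice spent 24 h in the dark, received 4-hydroxytamoxifen 1 h before contextual fear conditioning (a foot shock in a new chamber, day 0), and were killed 1.5 to 2 h afterwards or on day 5. A dark period of 48 h afterwards is listed alike for all libraries. After fixation with 1% paraformaldehyde, nuclei were stained for NeuN (the protein that marks nuclei of neurons), for Arc and for GFP and sorted, 10000 per condition from pools of 10 to 12 mice, so a replicate is a pool. The treatment field is the same for all libraries, with a foot shock and tissue collection on day 0. No label says which sorting gate belongs to Basal or to Early, so both groups share the strain, the drug and, per that field, the foot shock, and gates and titles cannot be told apart.

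The hippocampus is built from excitatory neurons of distinct subfields, the granule cells of the dentate gyrus and the pyramidal neurons of CA3, CA2 and CA1, with scattered inhibitory interneurons. In a neuron that has just been active, calcium entry and the ERK and CREB pathways switch on immediate early genes such as Arc, Fos, Egr1 and Npas4 within minutes, and some of their protein products then act on further genes. RNA in nuclei is rich in unspliced transcripts, so it lies closer to ongoing transcription than RNA of whole cells.

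The libraries held 4838166 to 10255713 counts in Basal and 6378949 to 9653364 in Early, with 18047 to 18643 genes detected. Rbfox3, which encodes NeuN, read 1680.1, 2006 and 1652 normalized counts in Basal and 1596, 1624 and 2033 in Early, so both groups carried the marker of the sort at similar levels. Other neuronal markers had higher estimates in Early, as given below. Some libraries stood apart within their group. Rn45s, the ribosomal RNA precursor, took 12.2% of the counts in Basal 3 and 12.9% in Early 3, against 4.72% to 6.37% in the other 4 libraries. Basal 3 was more like Early 3 (r = 0.961 across genes, log2 scale) than like Basal 1 (r = 0.954) or Basal 2 (r = 0.957). Basal 1 held 819 summed normalized counts of 17 blood vessel markers, against 228 in Basal 2 and 210.2 in Basal 3. No label gives a batch.

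Of the 15668 genes tested, 944 passed an adjusted p of 0.05 (6.03%). Of these, 527 were higher in Early (3.36% of genes tested) and 417 were lower (2.66%), while the median log2 fold change of all genes was 0.01. The test was edgeR's quasi-likelihood test with Benjamini-Hochberg adjustment, levels are normalized counts (counts divided by the relative library size), and a gene is said to have risen or fallen only if it passed. At least 2-fold changes made up 271 of the rises and 231 of the falls, and at least 4-fold changes 45 and 36. The 3 Early and the 3 Basal libraries did not overlap for 935 of the 944 (99.0%), whereas they did not overlap for 23.4% of all genes tested, 11.9% with Early above and 11.5% with Early below. The share called was larger at higher mean levels, with 1.44% of genes called under 30 normalized counts and 10.8% over 1000. Leaving out Basal 1, the library with the highest blood vessel markers, gave 596 calls, 575 of them among the 944, and leaving out Basal 2 gave 487, Early 1 549 and Early 2 614. Without Basal 3 and Early 3 together, the libraries rich in Rn45s, 947 genes passed, 733 of them among the 944. With the Rn45s share as a covariate 1297 passed and all 944 were among them. When every library was scaled to one total, 341 genes were higher and 444 lower (43.4% higher against 55.8%), and on unscaled counts, where the median of all genes was 0.25, 282 were higher and 86 lower (76.6% higher).

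**Figure D1:**
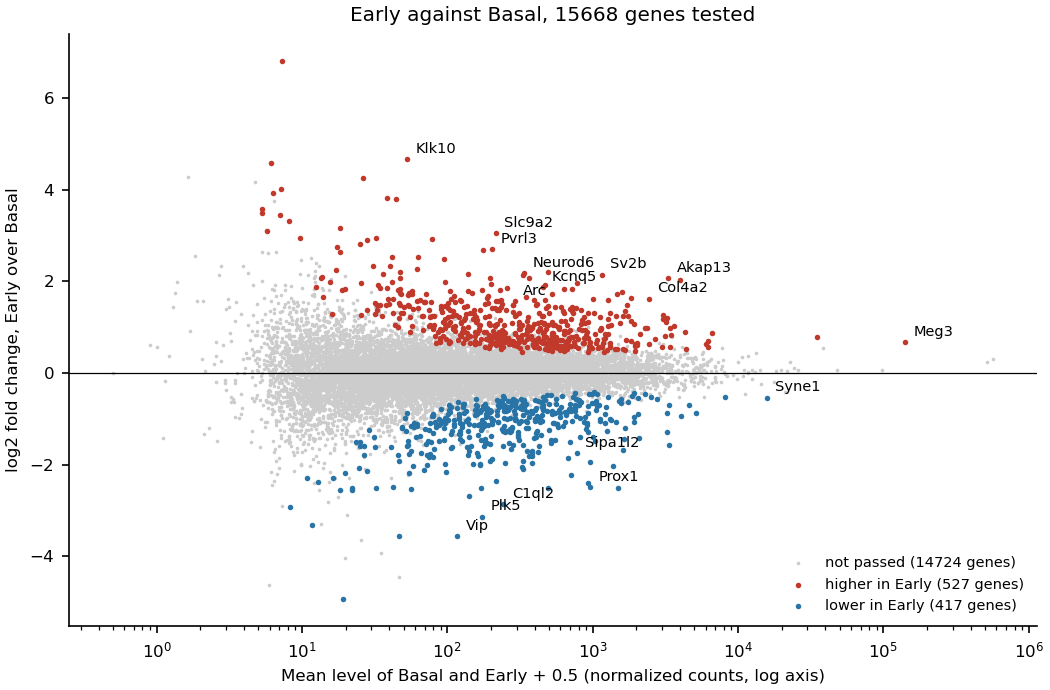
Log2 fold change of Early over Basal (vertical) against the mean level of the 6 libraries in normalized counts plus 0.5 (log axis), 1 point per gene tested. Red points are the 527 genes higher in Early, blue points the 417 lower and grey points the others; calls reach down to smaller fold changes at higher levels.

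Genes that mark dentate granule cells were lower in Early, and genes that mark CA1 and CA3 pyramidal neurons were higher. The lists here and below were chosen with earlier results of these data known. Their shares, sums and permutation p-values therefore describe these libraries and are no independent test of an excess. Lists share genes, such as Kcnq5, Hs3st4 and Calb2, and a shared gene counts in each, so lists are not separate findings. Of 21 granule cell genes tested, 18 fell and 0 rose, with a median log2 fold change of -1.86 beside 0.01 over all genes. Their summed level was 22015, 26698 and 18012 normalized counts in Basal and 6545, 6889 and 6381 in Early. The 3 Early libraries lay close together and all below the lowest Basal library (3.37-fold between the means, exact two-sided permutation p = 0.1, the smallest that 3 against 3 libraries allow). Sums without overlap were also seen in lists that gave few calls. Those of mossy cell genes were 773 to 884 normalized counts in Basal and 1047 to 1077 in Early. Those of adult neurogenesis genes were 1651 to 1799 in Basal and 1417.5 to 1518 in Early. In sorted pools, fewer nuclei of a cell type and less RNA per nucleus cannot be told apart.

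The falls took in the cytoskeleton, signalling and secreted proteins of granule cells as well as their transcription factors. Rfx3, a winged-helix factor, read 2503, 2830.5 and 1844 normalized counts in Basal and 908, 918 and 800.1 in Early, a 2.73-fold fall (log2 fold change -1.45 ± 0.28, adjusted p = 0.00603). Dgkh, a diacylglycerol kinase, read 2343, 2754 and 2273 normalized counts in Basal and 771, 843 and 697 in Early and fell 3.19-fold (log2 fold change -1.67 ± 0.15, adjusted p = 3.79e-05). Sema5a, a membrane semaphorin that steers axons and dendrites, fell 3.86-fold from 1571, 2103 and 931 to 449, 436 and 307 normalized counts. In each of these genes every Early library was below every Basal library. Dsp, which encodes desmoplakin of cell junctions, fell 4.66-fold, and Maml2, a Notch coactivator, 3.62-fold. Slc29a4, a monoamine transporter, fell 3.91-fold, Stxbp6, a binder of SNARE proteins, 3.53-fold, and Npnt, a matrix ligand of integrins, 3.44-fold. The smallest fall of the 18 was that of Ahcyl2, 2.04-fold, and the 3 members that did not pass were Tdo2 (-0.96 ± 0.72 on the log2 scale), Gsg1l (-0.70 ± 0.21) and Il16 (0.04 ± 0.20).

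Of 12 CA1 genes, 8 rose and 0 fell (median 1.09), and their summed level was 1586, 1522 and 2019 normalized counts in Basal and 3643, 3327 and 3207 in Early, without overlap. Wfs1, an endoplasmic reticulum protein of CA1 neurons, read 144, 163 and 141 normalized counts in Basal and 480.1, 459 and 319 in Early and rose 2.81-fold (log2 fold change 1.49 ± 0.19, adjusted p = 0.000278). Nov, a secreted matrix-associated protein, rose 2.68-fold from 119, 83.1 and 139.9 to 358, 308 and 257 normalized counts, and Pou3f1, a POU domain factor, rose 2.61-fold. Fibcd1, a receptor that binds chitin, rose 2.06-fold and Man1a, a mannosidase of the Golgi, 2.05-fold. Without Basal 1, 5 of the 12 passed. With libraries left out, and the log2 fold change then in parentheses, the call ended for Pou3f1 without Basal 1, Basal 2 or Early 3 (1.12 to 1.35), Fibcd1 without any library but Basal 3 and Early 2 (0.80 to 1.07) and Man1a without any library but Basal 3 (0.75 to 1.06).

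Of 12 CA3 genes, 7 rose and 1 fell (median 1.19), with a summed level of 2564, 2652 and 2688 normalized counts in Basal and 5019, 4378 and 6222 in Early. Kcnq5, a potassium channel subunit of the M-current, had the lowest p-value of all the rises by the naming rule. It read 205, 172 and 211 normalized counts in Basal and 773, 641 and 737 in Early, a 3.66-fold rise with tight groups far apart (log2 fold change 1.87 ± 0.14, adjusted p = 2.53e-05). Spock1, a secreted proteoglycan, read 448, 358 and 454 normalized counts in Basal and 1104, 943 and 1319.6 in Early and rose 2.67-fold, and Rnf182, a ubiquitin ligase, rose 2.46-fold. St18, a zinc finger factor, went the other way and fell 2.57-fold. Of 11 CA2 genes 2 rose, Amigo2, an adhesion protein (3.37-fold), and Necab2, a calcium-binding protein (1.85-fold), while the CA2 genes Rgs14 (0.50 ± 0.26 on the log2 scale) and Pcp4 (-0.35 ± 0.21) did not pass. General markers also rose in part, 4 of 15 for neuronal nuclei (8 without Basal 3) and 3 of 10 for glutamatergic neurons. Estimates were higher for 14 of the 15 (median 0.46) and 6 of the 10 (median 0.20). The neuronal sums were 19421 to 20392 normalized counts in Basal and 24454 to 27104 in Early. The glutamatergic sums were 20122 to 22055 and 22754 to 26692, also without overlap. Among the general markers that rose were Neurod6, a transcription factor of pyramidal neurons, which read 137, 87.5 and 141 normalized counts in Basal and 525, 462 and 683 in Early (4.55-fold), and Stmn2, a tubulin-binding protein (2.50-fold). The genes of mossy cells (1 of 6 up and 1 down), ventral hippocampus (2 of 7 up) and subiculum and cortex (1 of 11 up) gave few calls. The 2 rises of ventral genes became 0 without Basal 2, Early 1 or Early 2 and under scaling to one total, and 1 without Basal 3, and the fall of a mossy cell gene ended without Basal 1, Basal 2, Early 2 or Early 3. The glutamatergic markers Camk2a (-0.06 ± 0.15) and Neurod2 (-0.13 ± 0.22) did not pass. The calls that ended when libraries were left out (log2 fold change in parentheses) were those of Rnf182 without Basal 2 (1.17) and without Basal 3 and Early 3 together (1.31) and Necab2 without Basal 1, Basal 2 or Early 3 (0.69 to 0.78).

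Markers shared by inhibitory neurons were lower in part. Of 14, 4 fell and 0 rose (median -0.71), and the summed level was 5470.4, 4926 and 6422 normalized counts in Basal and 3790, 3275 and 2671 in Early, without overlap. Erbb4, the neuregulin receptor of interneurons, read 734, 605 and 1091 normalized counts in Basal and 338, 323 and 226 in Early, a 2.75-fold fall (log2 fold change -1.46 ± 0.21, adjusted p = 0.000571). Lhx6, a factor of interneurons born in the medial ganglionic eminence, fell 2.16-fold, which no longer passed in the fit with a replicate block (-1.11 on the log2 scale, adjusted p = 0.0502). The GABA-synthesizing enzymes did not pass, Gad1 at -0.65 ± 0.19 and Gad2 at -0.04 ± 0.19 on the log2 scale. Genes of interneuron classes went both ways, with 4 of 19 up and 3 down. Npy, which encodes neuropeptide Y, rose 2.95-fold from 35.0, 39.3 and 32.3 to 117, 139 and 56.8 normalized counts, Cck, cholecystokinin, rose 2.39-fold and Kit, a receptor tyrosine kinase, 2.12-fold. Vip, a peptide of one class, read 192, 282 and 172 normalized counts in Basal and 19.8, 24.1 and 10.0 in Early, an 11.8-fold fall, and Crh, corticotropin-releasing hormone, fell 4.57-fold and Calb2, calretinin, 3.47-fold. Of the 3 that fell, only Vip passed without Basal 2, without Early 3 or without Basal 3 and Early 3 together. Pvalb (1.14 ± 0.37) and Sst (-0.07 ± 0.26) did not pass. Leaving out libraries ended the following calls, with the log2 fold change in parentheses: Lhx6 without any library but Basal 2 and Early 1 (-1.20 to -0.85) and without Basal 3 and Early 3 together (-0.62), Cck without Early 1 (1.03) or Early 2 (1.21), Crh without Basal 2, Early 1 or Early 3 (-2.15 to -1.73) and without Basal 3 and Early 3 together (-2.15) and Calb2 without any library but Basal 3 and Early 1 (-2.06 to -1.37) and without Basal 3 and Early 3 together (-1.44).

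Markers of cells outside the sort gave few calls. Of 15 astrocyte genes 1 rose, Ntsr2, a neurotensin receptor, which read 64.8, 55.0 and 65.3 normalized counts in Basal and 196, 182 and 263 in Early (3.45-fold), while Aqp4 (-0.02 ± 0.50 on the log2 scale) and Gfap (0.22 ± 0.33) did not pass. Of 12 oligodendrocyte, 9 oligodendrocyte precursor, 10 microglia, 12 blood vessel and 10 choroid plexus, ependyma and meninges genes, 0 passed in either direction by edgeR. At an unadjusted p under 0.05 there were 1, 0, 0, 4 and 1 of them, and DESeq2 called 3 blood vessel genes and 1 of the last list lower. Without Basal 3, 3 blood vessel genes, 1 of the last list and 1 astrocyte gene fell, and without Early 3, 1 of the last list rose. Their summed levels overlapped between the groups in each of these lists, from 3360.4 to 6283 normalized counts for astrocytes over the 6 libraries and from 791 to 997 for microglia. Of 6 sex-linked genes 0 passed, 0 of them at an unadjusted p under 0.05. Of 13 genes of adult neurogenesis, Mki67, a marker of dividing cells, fell 2.76-fold, while Dcx, of immature neurons, did not pass (-0.30 ± 0.14). How far the shift in subfield markers accounts for the gene groups described next was not tested. Without some of the libraries calls ended (log2 fold change in parentheses) for Mki67 without Basal 2 (-1.25) or Early 3 (-1.33).

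**Figure D2:**
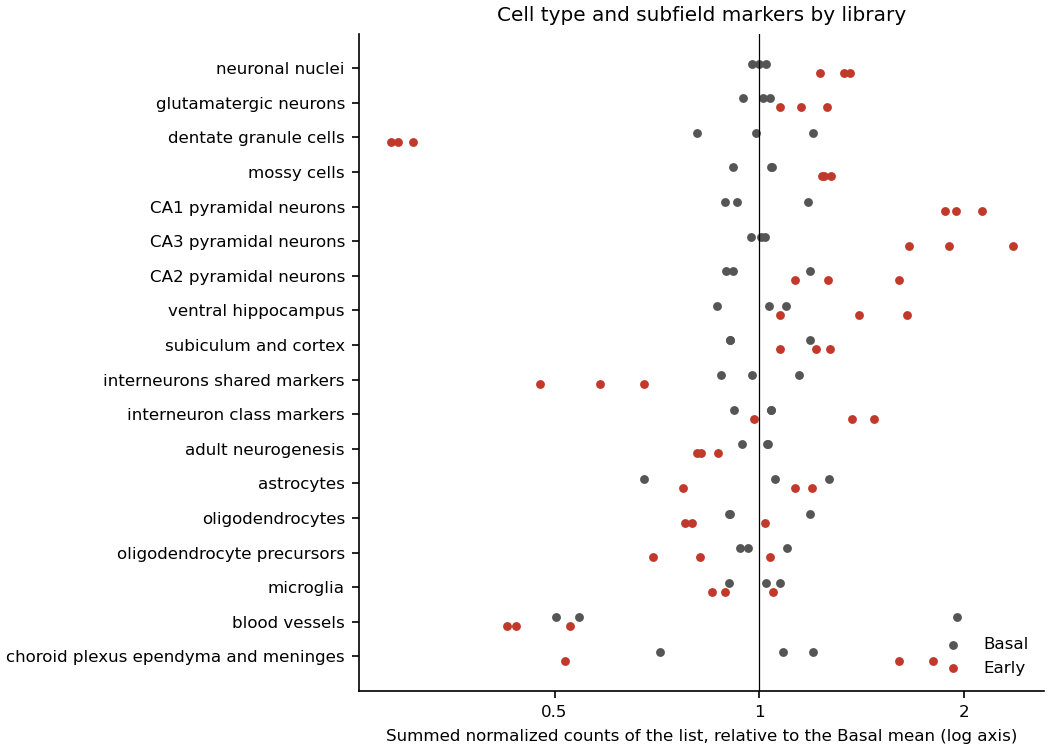
Summed normalized counts of each marker list in each library, divided by the Basal mean of that list (log axis); grey points are the 3 Basal and red points the 3 Early libraries. Granule cell and shared interneuron markers lie below all Basal libraries in Early, CA1 and CA3 markers above them, and Basal 1 stands apart for blood vessel markers.

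Some of the genes known to answer neuronal activity were higher in Early. Of 28 rapid genes 5 rose and 2 fell (17.9% up beside 3.36% of all genes, median 0.43), and of 22 delayed genes 8 rose and 0 fell (36.4%, median 0.30). Arc, a synaptic protein whose antibody was used in the sort and whose gene drives the Cre, read 150.3, 102 and 183 normalized counts in Basal and 554, 337 and 415 in Early. Every Early library was above the highest Basal library, though the Early libraries spread widely (2.97-fold, log2 fold change 1.57 ± 0.23, adjusted p = 0.000795).

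Among transcription factors, Npas4, which is induced by calcium, read 62.2, 53.9 and 74.6 normalized counts in Basal and 144, 178 and 133 in Early and rose 2.37-fold (log2 fold change 1.24 ± 0.19, adjusted p = 0.00117). Egr1, a zinc finger factor, read 117, 93.2 and 86.8 normalized counts in Basal and 262, 219 and 179.6 in Early and rose 2.24-fold (log2 fold change 1.16 ± 0.19, adjusted p = 0.00178). The 3 orphan nuclear receptors of the Nr4a family all rose. Nr4a1 read 142, 117 and 159 normalized counts in Basal and 387, 357 and 347 in Early (2.59-fold), Nr4a2 read 135, 117 and 127 normalized counts in Basal and 408, 404 and 169.5 in Early (2.59-fold) and Nr4a3 read 67.4, 35.9 and 121 normalized counts in Basal and 286, 226 and 296 in Early (3.49-fold, log2 fold change 1.80 ± 0.31, adjusted p = 0.0023). In all 3 the groups did not overlap, and Nr4a3 had the largest estimate of the delayed genes. Of the AP-1 factors, Fos, Fosb and Junb did not pass. Fos read 5.18, 5.61 and 10.8 normalized counts in Basal and 17.7, 18.6 and 15.9 in Early (log2 fold change 1.20 ± 0.51). Fosb stood at 0.75 ± 0.27 and Junb at 0.76 ± 0.26 on the log2 scale. Jun, also an AP-1 factor, fell 1.72-fold, from 328, 354 and 296 to 193, 166 and 209 normalized counts. Btg2, an antiproliferative cofactor, fell 3.57-fold from 114, 113 and 119.8 to 35.5, 37.3 and 24.2, also without overlap. Some calls ended when libraries were left out (log2 fold changes without them in parentheses), those of Nr4a2 without any library but Early 3 (1.19 to 1.42).

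The delayed genes that rose included enzymes, secreted proteins and a scaffold. Ptgs2, the inducible cyclooxygenase, read 47.9, 78.6 and 57.4 normalized counts in Basal and 142, 152 and 179 in Early (2.57-fold). Vgf, a precursor of secreted peptides, read 241, 251 and 393 normalized counts in Basal and 552, 662 and 655 in Early (2.10-fold), and Plk2, a kinase that acts on active synapses, read 618, 563 and 649 normalized counts in Basal and 1231, 1079 and 1175 in Early (1.90-fold). Nptx2, a secreted pentraxin that clusters AMPA receptors, rose 1.96-fold, Homer1, a postsynaptic scaffold, 1.69-fold and Sorcs3, a sorting receptor, 1.67-fold. Bdnf, a neurotrophin, read 260.4, 332 and 320 normalized counts in Basal and 321, 247 and 324 in Early and did not pass (log2 fold change -0.04 ± 0.25, adjusted p = 0.974). Scg2 (-0.29 ± 0.24), Nrn1 (-0.18 ± 0.24) and Rgs2 (0.86 ± 0.34) did not pass either. Of the 22 delayed genes, 4 rose with Basal 2 left out, 6 (with 1 fall) with Basal 3 left out, 4 with Early 1 left out, 5 with Early 2 left out and 4 under scaling to the same total. With libraries left out, and the log2 fold change then in parentheses, the call ended for Nptx2 without any library but Basal 1 and Early 3 (0.76 to 0.97) and without Basal 3 and Early 3 together (0.79), Homer1 without Basal 2 (0.64) or Early 1 (0.64) and Sorcs3 without any library but Basal 3 and Early 3 (0.65 to 0.76).

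**Figure D3:**
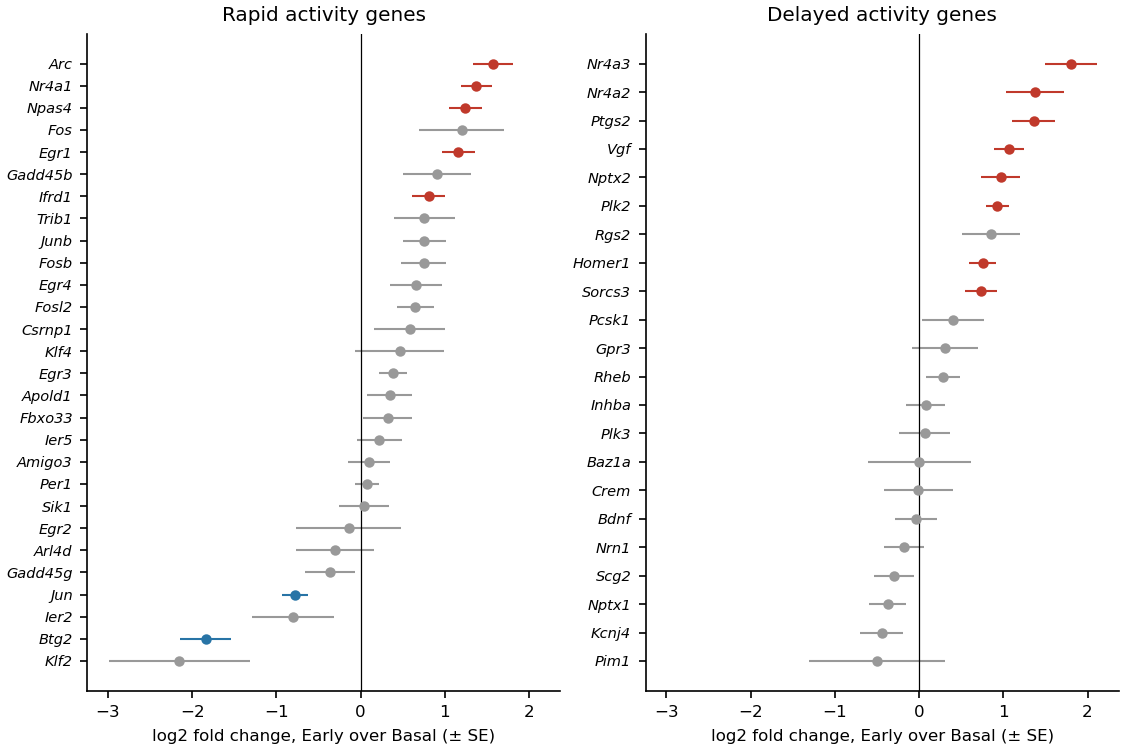
Log2 fold change of Early over Basal with its standard error (bars) for the 28 rapid (left) and 22 delayed (right) activity genes tested. Red points rose, blue points fell and grey points did not pass; 5 rapid and 8 delayed genes rose, and Fos and Bdnf are among those that did not pass.

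Feedback genes of the ERK pathway gave 2 rises among 18 tested, both of them phosphatases that act on ERK. Dusp5, the nuclear one, read 5.18, 13.5 and 10.8 normalized counts in Basal and 47.0, 38.6 and 66.8 in Early, a 5.01-fold rise (log2 fold change 2.33 ± 0.35, adjusted p = 0.000844), and Dusp6, the cytosolic one, read 20.7, 15.7 and 45.2 normalized counts in Basal and 91.9, 73.1 and 74.3 in Early (2.78-fold). Dusp1 (0.23 ± 0.36 on the log2 scale), Spry2 (0.75 ± 0.47) and Spry4 (0.63 ± 0.32) did not pass. Of 18 CREB, MEF2 and SRF factors 0 rose and 1 fell, the SRF coactivator Mkl2 (1.43-fold), and Creb1 stood at -0.01 ± 0.19. The calls that ended when libraries were left out (log2 fold change in parentheses) were those of Dusp6 without Basal 1 (1.33) or Basal 2 (1.21) and Mkl2 without any library but Basal 3 and Early 3 (-0.53 to -0.44).

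Promoters of 5 of these genes are shown because all 5 rose and each holds a motif bound by factors of the CREB or SRF pathway. Each is the 250 bases before the RefSeq start site in GRCm38.p6, a later build than the mm9 of the counts, for Npas4 at chr19:4989972-4990221, minus strand, Nr4a1 at chr15:101266596-101266845, plus strand, Nr4a3 at chr4:48045055-48045304, plus strand, Plk2 at chr13:110394794-110395043, plus strand and Dusp5 at chr19:53528895-53529144, plus strand. Capitals mark the CRE half-site TGACG, the full CRE TGACGTCA that contains it and the CArG box of SRF, searched on both strands.
Npas4: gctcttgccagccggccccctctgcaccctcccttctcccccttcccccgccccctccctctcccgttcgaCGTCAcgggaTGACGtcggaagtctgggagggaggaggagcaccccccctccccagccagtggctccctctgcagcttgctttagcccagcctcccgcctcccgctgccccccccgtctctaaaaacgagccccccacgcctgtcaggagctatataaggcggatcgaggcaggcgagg
Nr4a1: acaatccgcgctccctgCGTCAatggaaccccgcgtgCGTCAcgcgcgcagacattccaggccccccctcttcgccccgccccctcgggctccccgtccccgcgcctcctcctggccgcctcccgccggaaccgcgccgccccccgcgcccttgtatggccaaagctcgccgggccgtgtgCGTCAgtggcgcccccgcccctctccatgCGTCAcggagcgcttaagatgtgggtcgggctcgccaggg
Nr4a3: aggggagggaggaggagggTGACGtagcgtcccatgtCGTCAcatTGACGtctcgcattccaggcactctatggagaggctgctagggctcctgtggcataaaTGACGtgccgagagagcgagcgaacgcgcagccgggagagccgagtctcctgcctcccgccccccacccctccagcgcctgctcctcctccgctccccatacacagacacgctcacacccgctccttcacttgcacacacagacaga
Plk2: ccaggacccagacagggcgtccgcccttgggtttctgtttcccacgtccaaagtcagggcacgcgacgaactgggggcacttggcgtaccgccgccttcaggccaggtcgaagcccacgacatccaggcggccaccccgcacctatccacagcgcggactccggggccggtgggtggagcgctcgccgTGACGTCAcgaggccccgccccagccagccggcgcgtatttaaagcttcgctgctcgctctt
Dusp5: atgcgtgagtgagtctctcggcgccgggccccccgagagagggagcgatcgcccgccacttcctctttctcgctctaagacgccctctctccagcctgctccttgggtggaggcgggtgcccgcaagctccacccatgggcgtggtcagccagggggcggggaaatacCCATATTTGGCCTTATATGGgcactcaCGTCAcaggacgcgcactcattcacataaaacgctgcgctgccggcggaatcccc

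The half-site was in the promoters of 25 of the 38 rapid and delayed activity genes that have an entry (65.8%), beside 25.5% of the 12065 tested genes with one. Among the activity genes it was in 7 of the 9 that rose (77.8%) and in 17 of the 27 that did not pass (63.0%), a difference not tested. Over all genes it was in 26.3% of those higher in Early and 19.0% of those lower. The full CRE was in 5 of the 38, beside 2.59% of tested genes. Of the rising ones Plk2 held it, and the others were Btg2, which fell, and Arl4d, Scg2 and Pcsk1, which did not pass. It was thus in 11.1% of the 9 activity genes that rose and in 11.1% of the 27 that did not pass. The CArG box was in 1.13% of tested genes, and in 0 of the 38, while Dusp5, of the ERK list, held it. Arc, Egr1, Vgf and Nptx2, which rose, had no promoter entry, so the motif counts given here do not cover them. The AP-1 motif TGANTCA was in 0 of the 38, beside 4.51% of tested genes, and the EGR motif GCGTGGGCG in 1 of the 38, beside 0.986%. A match is a description of the letters and not a site of binding.

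Some genes of protein kinase C signalling were higher in Early. This pathway runs from phospholipase C through diacylglycerol to the kinases and to Ras, and 7 of its 21 genes tested rose and 1 fell (33.3% up beside 3.36%, median 0.15), while 13 did not pass. Without Early 3 the rises and falls were 6 and 2. Among the conventional, calcium-dependent kinases, Prkcb read 1960, 1698 and 1968 normalized counts in Basal and 4781, 4418 and 3564 in Early, a 2.27-fold rise (log2 fold change 1.18 ± 0.14, adjusted p = 0.000186). Prkca read 918, 829 and 875 normalized counts in Basal and 1879.9, 1545 and 1994 in Early (2.07-fold). The groups did not overlap in either of them. The kinases that do not need calcium did not pass, Prkce at -0.05 ± 0.14 and Prkcz at -0.00 ± 0.13 on the log2 scale.

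Upstream of the kinases, Plch2, a phospholipase C, read 569, 492 and 1592 normalized counts in Basal and 2189, 2157 and 3993 in Early, a 3.13-fold rise. Rasgrp1, a Ras activator that binds diacylglycerol, read 658, 737 and 624 normalized counts in Basal and 1902, 1470.2 and 1369.7 in Early (2.35-fold, log2 fold change 1.23 ± 0.16, adjusted p = 0.000247). Dgkb, a diacylglycerol kinase, rose 1.66-fold, and Plcl2, an inactive relative of phospholipase C, 1.60-fold, while its paralog Plcl1 fell 1.99-fold. The granule cell gene Dgkh, described above, is of the same enzyme family as Dgkb and went the other way. Prkd1, a kinase that diacylglycerol activates, was not on the list and met the naming rule by its p-value. It read 218, 313 and 268 normalized counts in Basal and 56.4, 64.9 and 81.0 in Early, a 3.94-fold fall. Leaving out libraries ended the following calls, with the log2 fold change in parentheses: Plch2 without Basal 1 (1.41) or Basal 2 (1.36) and Plcl2 without any library but Basal 3 (0.57 to 0.73).

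Some calcium and calmodulin genes were also higher, with 11 of 33 up, 1 down and 21 that did not pass (33.3% up, median 0.22). Among sensors, Hpca, hippocalcin, read 643, 718 and 1000.3 normalized counts in Basal and 1672, 1388 and 2263 in Early (2.25-fold, log2 fold change 1.17 ± 0.19, adjusted p = 0.00139), and Vsnl1, visinin-like 1, rose 2.07-fold. Of the kinases, Camk4, which phosphorylates CREB in the nucleus, read 415, 364 and 512 normalized counts in Basal and 815, 833 and 1027 in Early (2.07-fold), Camk1d rose 1.92-fold and Camk1g 1.92-fold. Camk2d rose 1.72-fold, while its relatives Camk2a (-0.06 ± 0.15 on the log2 scale) and Camk2b (-0.20 ± 0.17) did not pass. Ryr3, a calcium release channel, read 4776, 4054 and 5154 normalized counts in Basal and 8329.5, 7597 and 9643 in Early (1.83-fold). Atp2b1, a calcium pump of the plasma membrane, rose 1.48-fold, and Calb1, the buffer calbindin, fell 1.79-fold. The near-identical genes Calm2 (1.57-fold) and Calm3 (1.47-fold) rose, although reads of the calmodulin genes may be split between them. The number that rose was 5 with Basal 1 left out, 6 with Basal 2 left out, 6 with Early 1 left out and 7 with Early 2 left out, and 7 under scaling to the same total. Without some of the libraries calls ended (log2 fold change in parentheses) for Camk1g without any library but Basal 3 and Early 3 (0.71 to 0.97), Camk2d without Basal 1, Basal 2 or Early 2 (0.64 to 0.78), Atp2b1 without Basal 1, Basal 3 or Early 1 (0.45 to 0.60), Calb1 without Basal 1, Early 2 or Early 3 (-0.82 to -0.67) and without Basal 3 and Early 3 together (-0.76), Calm2 without any library but Early 3 (0.46 to 0.70) and Calm3 without any library but Basal 3 and Early 2 (0.43 to 0.56) and without Basal 3 and Early 3 together (0.52).

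Cyclic AMP genes went both ways, 4 of 32 up and 5 down. Akap13, an anchor of protein kinase A, read 902, 782 and 2124 normalized counts in Basal and 4610.5, 4076 and 7380.5 in Early, a 4.21-fold rise, in which Basal 3 lay above the other Basal libraries and below all Early ones. The phosphodiesterases split. Pde1a, activated by calmodulin, read 398, 267 and 482 normalized counts in Basal and 1081, 944 and 1021 in Early (2.65-fold), and Pde2a rose 1.63-fold. The close relative Pde1b read 764, 874 and 764 normalized counts in Basal and 317, 366 and 378 in Early, a 2.26-fold fall, and Pde7b fell 3.47-fold. Adcy1, the adenylyl cyclase that calmodulin stimulates, read 5369.5, 6298 and 5447 normalized counts in Basal and 3271, 3539 and 3676 in Early (1.63-fold lower, log2 fold change -0.71 ± 0.13, adjusted p = 0.00285). The regulatory subunits of protein kinase A moved apart, with Prkar1b up 1.61-fold and Prkar2b down 1.81-fold. The counts of rises and falls were 2 and 5 with Basal 2 left out, 3 and 3 with Early 1 left out and 4 and 3 with Basal 3 and Early 3 left out together. Some calls ended when libraries were left out (log2 fold changes without them in parentheses), those of Pde2a without Basal 2 (0.56) or Early 2 (0.67), Prkar1b without Basal 1, Basal 2 or Early 1 (0.55 to 0.65) and Prkar2b without Early 1 (-0.80) and without Basal 3 and Early 3 together (-0.72).

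Ion channel genes changed in both directions. Of 58 potassium and HCN channel genes 3 rose and 9 fell (15.5% down beside 2.66% of all genes, median -0.19). Besides Kcnq5, Kcnn2, a small-conductance calcium-activated channel, read 239.7, 213 and 283 normalized counts in Basal and 652, 667 and 520.3 in Early (2.49-fold). Among those that fell, Kcnc4, of a family of fast channels for rapid firing, read 291, 313 and 214 normalized counts in Basal and 119, 164 and 108 in Early (2.08-fold lower), without overlap between the groups. Kcnk1, a leak channel, fell 2.04-fold, and Kcna3, a delayed rectifier, 2.64-fold. The silent modifiers Kcng1 and Kcng2 fell 1.74-fold and 1.96-fold. Kcnj6 and Kcnj9, subunits of channels opened by G proteins, fell 1.52-fold and 1.51-fold. The 9 falls became 4 with Basal 1 left out, 3 with Basal 2 left out, 4 with Early 1 left out, 5 with Early 2 left out and 4 with Early 3 left out. With libraries left out, and the log2 fold change then in parentheses, the call ended for Kcnk1 without any library but Basal 3 and Early 2 (-1.09 to -0.76), Kcna3 without any library but Basal 3 and Early 2 (-1.39 to -1.18), Kcng1 without any library but Basal 3 and Early 1 (-0.79 to -0.71), Kcng2 without any library but Basal 1 and Early 3 (-0.94 to -0.78), Kcnj6 without any library but Basal 3 and Early 1 (-0.58 to -0.48) and Kcnj9 without Early 1 (-0.53).

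Of 24 sodium and calcium channel genes 6 rose and 2 fell. Scn4b, a sodium channel beta subunit, read 16.8, 21.3 and 12.2 normalized counts in Basal and 69.9, 73.8 and 54.3 in Early, a 3.99-fold rise (log2 fold change 2.00 ± 0.32, adjusted p = 0.00151). Cacna2d3, an auxiliary subunit, read 1084, 1163 and 1206 normalized counts in Basal and 2208, 2649.9 and 2694 in Early (2.19-fold). Cacna1a, the pore of the P/Q-type channel that triggers transmitter release, rose 1.63-fold, and Cacna1i, a T-type channel, rose 1.49-fold, while Cacna1h, another T-type channel, read 3792, 4517 and 4398 normalized counts in Basal and 1944, 2171 and 2778 in Early and fell 1.84-fold. Scn3a, a sodium channel highest before birth, fell 1.75-fold. Rises and falls numbered 3 and 2 with Basal 1 left out, 2 and 3 with Basal 2 left out, 3 and 2 with Early 3 left out and 3 and 2 under scaling to one total. The calls that ended when libraries were left out (log2 fold change in parentheses) were those of Cacna1a without Basal 1, Basal 2 or Early 3 (0.43 to 0.67) and Cacna1i without Basal 2 (0.52).

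Receptors for transmitters gave few calls, with kainate receptor subunits among them. Of 14 NMDA and kainate receptor genes 2 rose and 4 fell. Grik4, of the high-affinity kainate subunits, read 491, 655 and 549.7 normalized counts in Basal and 1031, 956 and 1604 in Early (2.12-fold), and Neto1, an auxiliary subunit, rose 1.94-fold. Grik1, Grik2 and Grik3, the low-affinity subunits, fell 2.35-fold, 1.56-fold and 1.49-fold, and Grin2d, an NMDA receptor subunit, 1.94-fold. With the replicate number as a block (paired fit) 2 of these 4 fell, since Grik1 (-1.17) and Grik2 (-0.64) no longer passed, and with single libraries left out the rises and falls were 2 and 1 with Basal 1 left out, 2 and 2 with Basal 2 left out, 2 and 1 with Basal 3 left out, 2 and 0 with Early 1 left out, 2 and 1 with Early 2 left out and 2 and 0 with Early 3 left out. Grin1 (0.03 ± 0.12 on the log2 scale) and Grin2b (0.17 ± 0.13) did not pass. Of 17 AMPA receptor genes 1 fell, the auxiliary protein gene Shisa9 (2.16-fold), and of 17 postsynaptic scaffolds 1 rose, Homer3 (2.63-fold), while the pore subunits Gria1 (0.06 ± 0.12) and Gria2 (0.07 ± 0.14) did not pass. Of 7 metabotropic glutamate receptors Grm2, a presynaptic one, fell 2.63-fold, and of 16 GABA receptor genes Gabrd, an extrasynaptic subunit of granule cells, fell 2.16-fold. Of 38 neuromodulator receptors 3 rose and 2 fell, led by Chrm3, a muscarinic receptor, at 145, 120.1 and 236 normalized counts in Basal and 449, 543 and 599 in Early (3.14-fold), and Htr1f, a serotonin receptor (3.33-fold). The 2 falls, of Oprd1, an opioid receptor (1.89-fold), and Htr4, a serotonin receptor (1.81-fold), both ended when any library but Basal 3 was left out, and that of Htr4 with the replicate block. Rises of scaffold genes numbered 3 and falls of AMPA and GABA receptor genes 2 each without Basal 3. Leaving out libraries ended the following calls, with the log2 fold change in parentheses: Grik1 without any library but Basal 2 (-1.43 to -0.82) and without Basal 3 and Early 3 together (-0.58), Grik2 without any library but Basal 3 (-0.72 to -0.52), Grik3 without any library but Early 2 (-0.67 to -0.44) and without Basal 3 and Early 3 together (-0.49), Grin2d without any library but Basal 1 and Basal 2 (-0.99 to -0.57) and without Basal 3 and Early 3 together (-0.55), Homer3 without Basal 1, Basal 2 or Early 3 (0.90 to 1.38), Grm2 without Basal 2, Early 1 or Early 3 (-1.32 to -1.15) and Gabrd without any library but Basal 3 and Early 2 (-1.09 to -0.84).

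Genes of vesicle release also split between paralogs. Of 39, 8 rose and 5 fell. Sv2b, a vesicle glycoprotein, read 549, 325 and 403 normalized counts in Basal and 2072, 1861 and 1709 in Early, a 4.42-fold rise (log2 fold change 2.15 ± 0.20, adjusted p = 3.79e-05), while its paralog Sv2c read 373, 377 and 273 normalized counts in Basal and 138, 160.1 and 126 in Early and fell 2.40-fold. Both differences were without overlap between the groups. Syn2, a synapsin, rose 1.48-fold, and Syn3, another synapsin, read 1510.5, 1814 and 1014 normalized counts in Basal and 579, 598 and 472 in Early and fell 2.63-fold. Unc13b, which primes vesicles, rose 1.96-fold, Cplx1, complexin, 2.18-fold, Snap25, a SNARE, 1.76-fold and Rab3c, a vesicle GTPase, 1.73-fold. Doc2b, a calcium sensor, fell 2.07-fold, and Syt17 1.60-fold. The rises and falls were 3 and 3 with Basal 1 left out, 4 and 2 with Basal 2 left out, 4 and 2 with Early 1 left out, 5 and 3 with Early 2 left out and 5 and 6 under scaling to one total. Without some of the libraries calls ended (log2 fold change in parentheses) for Sv2c without any library but Basal 3 and Early 2 (-1.25 to -1.18) and without Basal 3 and Early 3 together (-1.32), Syn2 without any library but Basal 3 and Early 2 (0.48 to 0.56), Cplx1 without Basal 1, Basal 2 or Early 3 (0.88 to 1.09), Rab3c without any library but Basal 3 and Early 3 (0.61 to 0.81) and Syt17 without Basal 2, Early 1 or Early 2 (-0.62 to -0.57).

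Guidance receptors and adhesion proteins changed in both directions. Of 29 semaphorin, plexin and neuropilin genes 3 rose and 3 fell. Plxna1, a semaphorin receptor, read 893, 785 and 1131 normalized counts in Basal and 2379.9, 2113 and 2739 in Early (2.57-fold, log2 fold change 1.36 ± 0.17, adjusted p = 0.000211), Sema3e, a secreted ligand, rose 2.17-fold, and Plxna4 read 4104, 4868 and 3471 normalized counts in Basal and 2612, 2351 and 2755 in Early (1.61-fold lower). Of 20 ephrin and Eph genes 4 rose and 1 fell (median 0.29; 3 and 2 without Basal 3), among them Epha6, a receptor, at 1794, 1720.5 and 2585 normalized counts in Basal and 3849.5, 3834 and 5460.4 in Early (2.15-fold), and Ephb3 (2.52-fold). Robo1, the Slit receptor, read 378, 379 and 498 normalized counts in Basal and 1028, 909 and 1187 in Early (2.48-fold), and its relative Robo3 fell 2.00-fold. Of 31 cadherins, protocadherins and nectins 2 rose and 5 fell. Cdh24 read 114, 103 and 148 normalized counts in Basal and 511, 415 and 694 in Early, a 4.40-fold rise, and Pcdh17, a protocadherin, read 1482, 1915 and 1140.2 normalized counts in Basal and 797, 754 and 642 in Early, a 2.07-fold fall. Fat4, a giant cadherin, fell 2.44-fold. Of 38 synaptic adhesion genes 1 rose, the neuroligin gene Nlgn1 (1.58-fold), and 2 fell, C1ql3, a secreted synaptic organizer (3.01-fold), and Lrrtm4, a postsynaptic partner of heparan sulfate (2.14-fold). The number of synaptic adhesion genes that rose was 3 without Basal 3 and 2 without Early 3. The 2 rises of cadherins became 4 without Basal 3 and 1 without Basal 1, Basal 2, Early 1 or Early 2. Some calls ended when libraries were left out (log2 fold changes without them in parentheses), those of Plxna4 without Basal 2 (-0.56).

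Some proteoglycan genes of the extracellular matrix were higher in Early. Of 36 proteoglycan and hyaluronan genes 11 rose and 1 fell (30.6% up, median 0.22). Bcan, brevican of perineuronal nets, read 364, 338 and 511 normalized counts in Basal and 928, 1134 and 1065 in Early (2.57-fold, log2 fold change 1.36 ± 0.17, adjusted p = 0.00023), and Hapln4, a link protein of the same nets, read 111, 68.5 and 98.3 normalized counts in Basal and 246, 204 and 276 in Early (2.61-fold). Acan, aggrecan, did not pass (0.65 ± 0.28 on the log2 scale). Enzymes that sulfate the sugar chains rose too. Hs3st4 read 175, 176 and 292 normalized counts in Basal and 484, 519 and 826 in Early (2.82-fold), Ndst3 rose 2.48-fold, Hs6st3 1.83-fold and Ndst1 1.61-fold, all of heparan sulfate, and Chst8 rose 3.95-fold. Gpc4, a glypican, fell 3.07-fold, while Gpc5 rose 2.33-fold and Gpc1 1.54-fold. The number that rose was 6 with Basal 2 left out, 5 with Early 1 left out and 7 with Early 2 left out, and 7 under scaling to the same total, and without Basal 3 it was 8 with 2 falls. With libraries left out, and the log2 fold change then in parentheses, the call ended for Ndst3 without Basal 2, Early 1 or Early 2 (1.13 to 1.17), Hs6st3 without any library but Basal 3 (0.71 to 0.98), Ndst1 without any library but Basal 1 (0.60 to 0.71) and without Basal 3 and Early 3 together (0.65), Gpc5 without Basal 3 and Early 3 together (0.91) and Gpc1 without any library but Basal 3 and Early 2 (0.50 to 0.63).

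Of 38 collagen and matrix glycoprotein genes 6 rose and 3 fell, with a median log2 fold change of 0.0029. Col4a1 and Col4a2, neighbouring genes that encode the chains of basement membrane collagen, rose together. Col4a1 read 687, 519 and 1514 normalized counts in Basal and 1818, 1892 and 3945 in Early (2.81-fold) and Col4a2 read 953, 705 and 1909.5 normalized counts in Basal and 2779.6, 2665 and 5559.8 in Early (3.08-fold). In both, Basal 3 and Early 3 were the highest libraries of their groups. Col11a1 read 211, 256 and 474 normalized counts in Basal and 913, 923 and 1549 in Early (3.57-fold), Fn1, fibronectin, read 215, 71.8 and 241 normalized counts in Basal and 919.6, 1027 and 484 in Early (4.57-fold), and Col15a1 rose 2.68-fold. Postn, periostin, fell 5.82-fold, and Lama5, a laminin chain, 2.24-fold. Without Basal 3, 9 of the 38 rose and 5 fell, without Basal 1, 4 and 3, and without Basal 2, 4 and 2. The calls that ended when libraries were left out (log2 fold change in parentheses) were those of Col4a1 without Basal 1, Basal 2 or Early 3 (1.04 to 1.33), Col4a2 without Basal 1 (1.49) or Basal 2 (1.35) and Postn without Basal 2 (-2.40) and without Basal 3 and Early 3 together (-2.47).

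Large fold rises were seen in kallikrein-related proteases, secreted serine proteases of which Klk8, neuropsin, acts at synapses. Of 32 extracellular protease genes 7 rose and 3 fell, and 5 of the rises were kallikreins. Klk10 read 2.59, 2.24 and 5.74 normalized counts in Basal and 100.2, 82.1 and 120.3 in Early (25.5-fold). Klk12 read 0, 1.12 and 5.02 normalized counts in Basal and 53.2, 49.7 and 46.8 in Early and rose 19.1-fold, and Klk11 read 7.77, 5.61 and 5.02 normalized counts in Basal and 50.1, 34.5 and 45.1 in Early and rose 7.07-fold. Klk8 read 2.59, 6.73 and 5.02 normalized counts in Basal and 83.5, 55.9 and 74.3 in Early (14.2-fold), and Klk9 rose 14.0-fold. Basal levels were at a few normalized counts in all 5, so the folds are imprecise, and the genes are alike in sequence, so reads may be split between them. Klk14 did not pass (0.41 ± 0.66 on the log2 scale). Elsewhere on the list Adam11 (1.81-fold) and Adam23 (1.70-fold), membrane proteins without protease activity, rose, and Timp3, an inhibitor of metalloproteases, read 684, 670 and 388 normalized counts in Basal and 243, 278 and 183 in Early (2.46-fold lower). Falls numbered 1 with Basal 1 left out, 1 with Basal 2 left out and 1 with Early 1 left out. Leaving out libraries ended the following calls, with the log2 fold change in parentheses: Adam11 without Basal 1, Basal 2 or Early 3 (0.57 to 0.79).

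The 5 kallikreins and the gene model 2310002F09Rik lie next to each other among the genes tested, in the gene order of RefSeq GRCm38.p6, and formed the longest run of adjacent genes called in one direction. There were 72 such runs with 153 of the 936 called genes that could be placed, 39 of them up and 33 down, and 5 runs held 3 genes or more. Other neighbours, chosen after their values were seen, were the sodium and proton exchangers Slc9a4 and Slc9a2, which rose 4.47-fold and 8.27-fold, Kcnj11 and Abcc8, which encode the subunits of the ATP-sensitive potassium channel and fell 1.60-fold and 1.63-fold, and Evc and Evc2, which share a role in Hedgehog signalling at the cilium and rose 2.99-fold and 3.00-fold. Syne1, a large protein of the nuclear envelope, and Vip are also neighbours and fell 1.45-fold and 11.8-fold. The call of Kcnj11 ended without Basal 1, Basal 2, Early 1 or Early 3 (log2 fold changes of -0.66 to -0.58), and that of Syne1 without Basal 2, Early 1 or Early 2 (-0.52 to -0.48). Whether reads of neighbours could be told apart was not tested.

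Some glycolytic enzymes were higher in Early by small folds. Of 22 genes of glycolysis and lactate 7 rose and 0 fell (31.8% up, median 0.54). They spanned the pathway from Hk1, hexokinase (1.50-fold), through Pfkl, phosphofructokinase (1.57-fold), and Aldoa, aldolase (1.69-fold), to Pgam1, phosphoglycerate mutase (1.59-fold). Gpi1, glucose phosphate isomerase, read 1172, 987 and 1545 normalized counts in Basal and 2404, 2287 and 3142 in Early (2.11-fold, log2 fold change 1.08 ± 0.17, adjusted p = 0.00118). Tpi1, triosephosphate isomerase, rose 1.89-fold and Pgk1, phosphoglycerate kinase, 1.80-fold. Gapdh (0.45 ± 0.19 on the log2 scale) and the glucose transporter Slc2a1 (-1.35 ± 0.53), a gene also high in vessels, did not pass. The number that rose was 3 with Basal 1 left out, 2 with Basal 2 left out, 10 (with 2 falls) with Basal 3 left out and 4 with Early 1 left out, 3 under scaling to the same total and 0 on unscaled counts. Without some of the libraries calls ended (log2 fold change in parentheses) for Hk1 without any library but Basal 3 (0.42 to 0.67), Pfkl without Basal 1, Basal 2 or Early 3 (0.41 to 0.59), Pgam1 without Basal 1, Basal 2 or Early 1 (0.58 to 0.65), Tpi1 without Basal 2 (0.84) and Pgk1 without any library but Basal 3 and Early 3 (0.66 to 0.85).

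Other housekeeping groups gave few calls. Of 42 respiratory chain and ATP synthase genes 1 rose, Atp5g1 (1.90-fold), of 40 splicing factors 1 rose, Rbfox2 (1.39-fold, which no longer passed in the fit with a replicate block, where its log2 fold change was 0.48), and of 33 cytosolic ribosomal protein genes 0 passed. The respiratory chain estimates were nonetheless higher in Early for 40 of the 42 (median 0.30), 8 of the 42 at an unadjusted p under 0.05. Their summed level was 5992 to 6460 normalized counts in Basal and 7105 to 8373 in Early, without overlap. Of 46 histone modifying enzymes, 16 genes of DNA methylation, 14 of the glucocorticoid response and 17 of the circadian clock, 0 passed by edgeR, with median log2 fold changes of -0.08, -0.14, -0.19 and -0.01. At an unadjusted p under 0.05 there were 12 of the histone enzymes, 0 of the methylation genes, 2 of the glucocorticoid genes and 4 of the clock genes, with 2 of the ribosomal genes. DESeq2 called 3 histone enzymes lower and 1 glucocorticoid gene higher among these, and limma-voom the same number of histone enzymes. Without Basal 3, 2 histone enzymes and 1 clock gene rose and 1 clock gene fell, and without Early 3, 3 histone enzymes and 1 glucocorticoid gene fell and 1 clock gene rose. Rises of respiratory chain genes numbered 2 without Basal 3 and 3 without Early 3. Of 14 cohesin and CTCF genes Stag1 fell 1.38-fold. Estimates were lower for 13 of the 14 (median -0.20), with sums of 10094 to 10443 normalized counts in Basal and 8807 to 9007 in Early. Of 23 heat shock genes 3 rose, the cytosolic chaperones Hsp90ab1 (1.68-fold) and Hsp90aa1 (1.57-fold) and Dnajc6, which uncoats clathrin vesicles (1.44-fold), and 0 rose without Basal 2 or without Early 1. Of 35 tubulin and motor genes 5 rose and 1 fell, Kif26b, a kinesin, at 591, 666 and 696 normalized counts in Basal and 175, 187 and 226 in Early (3.32-fold lower). The number of these that rose was 3 with Basal 1 left out, 3 with Basal 2 left out, 11 with Basal 3 left out, 3 with Early 1 left out and 3 with Early 3 left out. Some calls ended when libraries were left out (log2 fold changes without them in parentheses), those of Atp5g1 without Basal 2 (0.90) or Early 1 (0.80) and without Basal 3 and Early 3 together (0.96), Rbfox2 without any library but Basal 1 and Early 3 (0.42 to 0.48), Stag1 without any library but Basal 3 (-0.49 to -0.38), Hsp90ab1 without any library but Basal 3 and Early 2 (0.62 to 0.72), Hsp90aa1 without Basal 1, Basal 2 or Early 1 (0.53 to 0.66) and Dnajc6 without any library but Basal 1 and Early 2 (0.47 to 0.52) and without Basal 3 and Early 3 together (0.45).

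Some nuclear long noncoding RNAs were higher, with 3 of 15 up. Snhg11 read 22891, 19591 and 34439 normalized counts in Basal and 40054, 43846 and 49219 in Early (1.73-fold), and Meg3 and Rian, maternally expressed transcripts of one imprinted locus, rose 1.59-fold and 1.56-fold. Malat1, an abundant nuclear transcript, did not pass (0.25 ± 0.14 on the log2 scale). The 3 became 0 with Basal 1 left out, 0 with Basal 2 left out, 1 with Early 1 left out and 1 with Early 2 left out. Among 41 neuronal transcription factors 5 rose and 1 fell. Bcl11a, a zinc finger repressor, read 1004, 1003 and 1034 normalized counts in Basal and 1592, 1523 and 1707 in Early (1.59-fold), Sox5 rose 1.73-fold, Lhx2 1.57-fold and Foxp1 1.53-fold, and Tshz1 fell 1.97-fold. The number that rose was 3 with Basal 1 left out, 2 with Basal 2 left out, 3 with Early 1 left out and 2 with Early 3 left out, and 2 under scaling to the same total. With libraries left out, and the log2 fold change then in parentheses, the call ended for Snhg11 without Basal 1 (0.72) or Basal 2 (0.63), Meg3 without any library but Basal 3 and Early 3 (0.51 to 0.69), Rian without any library but Basal 3 (0.51 to 0.68), Sox5 without any library but Basal 3 (0.56 to 0.89), Lhx2 without Basal 1, Basal 2 or Early 3 (0.49 to 0.65) and without Basal 3 and Early 3 together (0.52), Foxp1 without Basal 2 (0.55) or Early 1 (0.57) and Tshz1 without any library but Basal 1 (-1.03 to -0.73) and without Basal 3 and Early 3 together (-0.74).

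**Figure D4:**
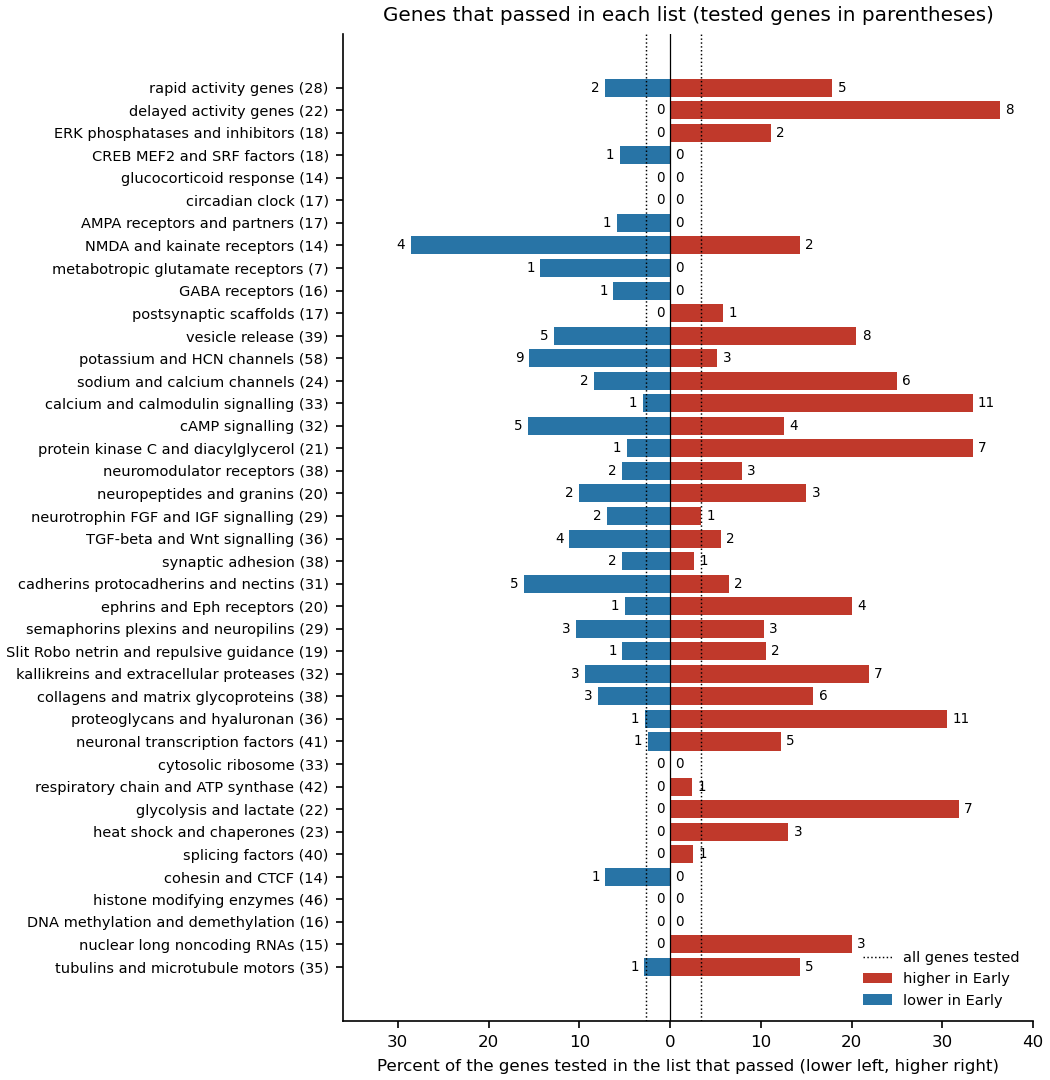
Percent of the tested genes of each list that rose (red, right) or fell (blue, left) in Early against Basal, with the number of genes at each bar and the genes tested in parentheses. Dotted lines mark 3.36% and 2.66%, the shares of all genes tested; the bars of delayed activity, calcium, protein kinase C, glycolysis and proteoglycan genes reach past 30% on the right.

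Signalling from growth factors and morphogens showed single changes. Of 36 TGF-beta and Wnt genes 2 rose and 4 fell. Dkk3, a secreted protein of the Dickkopf family, read 529.8, 348 and 291 normalized counts in Basal and 1272, 989 and 918 in Early (2.73-fold), and Inhbb, an activin subunit, rose 3.54-fold. Tgfbr1, the TGF-beta receptor kinase, fell 4.05-fold from 157, 122 and 68.9 to 30.3, 29.7 and 25.1 normalized counts, its partner Smad3 fell 1.82-fold, Acvr1c, an activin-type receptor, 2.19-fold and Axin2, a target and inhibitor of Wnt signalling, 1.90-fold. The 4 falls became 2 with Basal 1 left out, 2 with Basal 2 left out, 2 with Early 2 left out and 2 with Early 3 left out. Of 29 neurotrophin, FGF and IGF genes 1 rose, the receptor gene Fgfr1 (1.75-fold), and 2 fell, Nrg2, a neuregulin, at 372, 429 and 382 normalized counts in Basal and 135, 149 and 125 in Early (2.89-fold lower), and Igfbp5, an IGF-binding protein (1.74-fold). Ntrk2, the receptor of Bdnf, stood at 0.08 ± 0.16 on the log2 scale. Of 20 neuropeptides and granins 3 rose and 2 fell, and 1 fell without Basal 2, Early 1 or Early 3. The falls of Vip and Crh and the rises of Npy and Cck are those already given for interneuron classes. Among the rises, Chgb, a granin of secretory granules, read 2752, 2476 and 1967 normalized counts in Basal and 4484, 3821 and 6239 in Early (2.02-fold). The calls that ended when libraries were left out (log2 fold change in parentheses) were those of Inhbb without Basal 3 and Early 3 together (1.57), Tgfbr1 without any library but Basal 3 (-2.06 to -1.74), Acvr1c without any library but Basal 3 and Early 1 (-1.14 to -0.75) and Igfbp5 without any library but Basal 3 and Early 2 (-0.86 to -0.57).

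Among genes that no list held but the naming rule chose, several stood out by their p-value or level. Thsd4, a matrix protein with thrombospondin repeats, read 197, 172 and 224 normalized counts in Basal and 802, 617 and 828 in Early (3.78-fold, log2 fold change 1.92 ± 0.17, adjusted p = 2.91e-05). Trps1, a GATA-type repressor, read 259, 260.4 and 429 normalized counts in Basal and 1219, 1103 and 1416 in Early (3.92-fold). Rem2, a GTPase that restrains calcium channels, rose 4.59-fold, and Cachd1, which resembles a calcium channel subunit, rose 4.24-fold. Cdc14a, a phosphatase, rose 4.48-fold, Peak1, a pseudokinase of the cytoskeleton, 3.43-fold and Cpne7, a copine that binds membranes with calcium, 4.07-fold. Arpp21, a phosphoprotein regulated by cyclic AMP, rose 1.44-fold. Leaving out libraries ended the following calls, with the log2 fold change in parentheses: Arpp21 without any library but Early 1 (0.46 to 0.58) and without Basal 3 and Early 3 together (0.44).

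Sipa1l2, a GTPase-activating protein that turns Rap off, had the lowest p-value among the falls. It read 1099.8, 1354 and 1147 normalized counts in Basal and 307, 348 and 411 in Early, a 3.38-fold fall (log2 fold change -1.76 ± 0.15, adjusted p = 2.91e-05). Ablim3, an actin-binding protein, read 544, 672 and 581 normalized counts in Basal and 139.9, 197 and 173 in Early (3.51-fold lower). Pard3, a polarity scaffold, fell 2.85-fold, Zfp536, a zinc finger repressor, 3.03-fold and Igsf3, an immunoglobulin family membrane protein, 3.24-fold. Cxcl12, a chemokine, fell 4.47-fold and Asic4, of the acid-sensing channel family, 4.51-fold. Fam163b fell 4.11-fold and Il20rb, a cytokine receptor, 5.62-fold. Ppfia2, a presynaptic scaffold, read 4955, 6205 and 4789 normalized counts in Basal and 2580.3, 2389.8 and 3408 in Early (1.90-fold lower), and Pitpnm2, a phosphatidylinositol transfer protein, fell 2.95-fold.

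The groups titled Late and Reactivated give the same genes a wider setting, as levels only, since any comparison with Basal uses the same 3 Basal libraries. Klk10 was at 3.53 ± 1.93 (Basal), 101 ± 19.1 (Early), 40.2 ± 14.9 (Late) and 41.2 ± 1.14 (Reactivated) normalized counts, given as mean ± SD with n = 3 libraries each. Prkcb was at 1875 ± 153 (Basal), 4254 ± 625 (Early), 3002 ± 60.0 (Late) and 3380.4 ± 324 (Reactivated), and in both genes the Early mean was the highest of the 4. Kcnq5 was at 196 ± 21.1 (Basal), 717 ± 68.5 (Early), 1031 ± 118 (Late) and 479 ± 7.99 (Reactivated), with its highest mean in Late. Col4a2 was at 1189 ± 636 (Basal), 3668 ± 1639 (Early), 7231 ± 1223 (Late) and 4755 ± 998 (Reactivated). Prox1, a granule cell factor, was at 1636 ± 196 (Basal), 290.1 ± 22.0 (Early), 119.5 ± 9.52 (Late) and 252 ± 180.1 (Reactivated), and Vip at 215 ± 58.7 (Basal), 18.0 ± 7.24 (Early), 13.3 ± 5.29 (Late) and 22.2 ± 9.73 (Reactivated). Baiap3, a protein of dense-core vesicle traffic, was at 242 ± 143 (Basal), 37.4 ± 6.88 (Early), 162 ± 18.6 (Late) and 76.8 ± 31.2 (Reactivated), so that its lowest mean was in Early. Dusp5 was at 9.80 ± 4.23 (Basal), 50.8 ± 14.5 (Early), 69.5 ± 3.92 (Late) and 52.6 ± 10.2 (Reactivated).

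**Figure D5:**
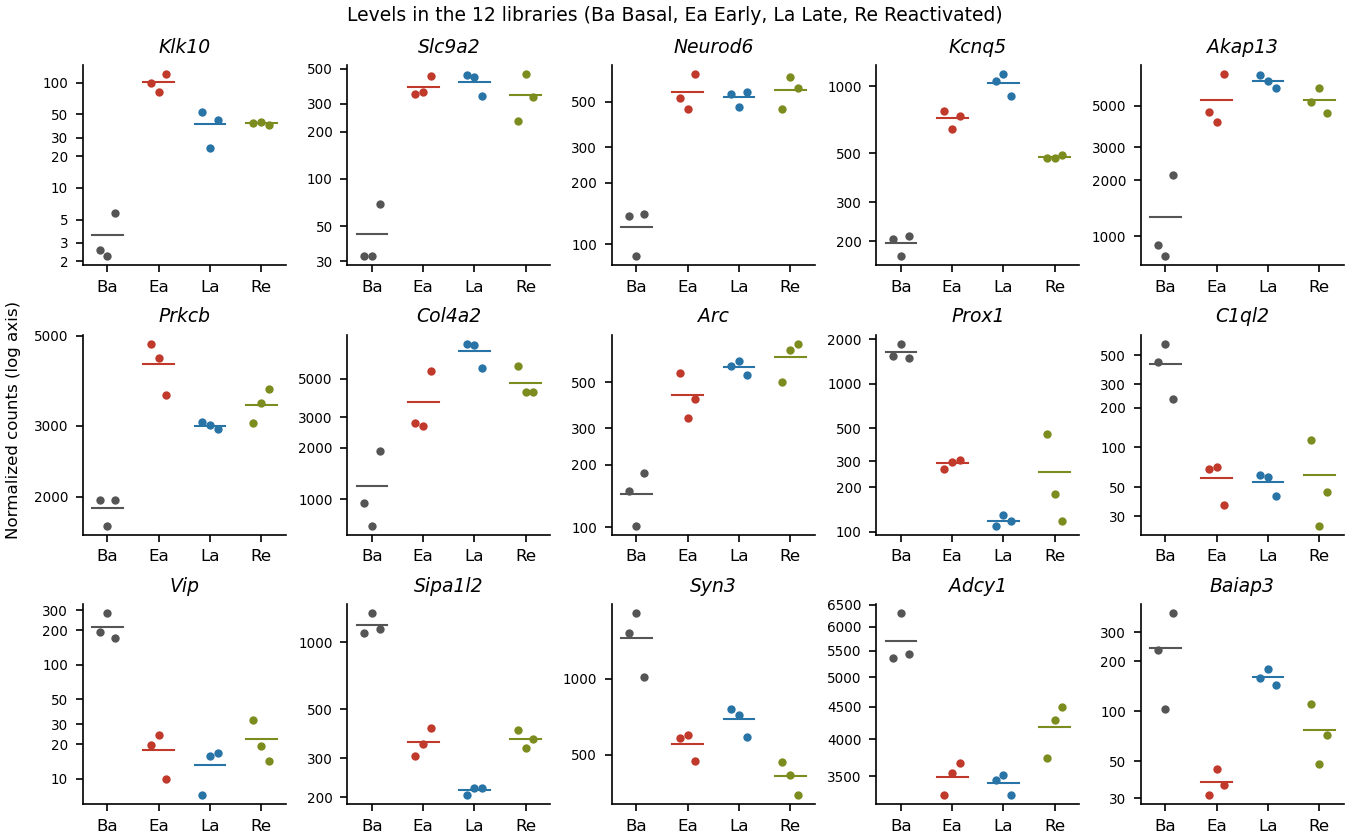
Normalized counts (log axis, scaled per gene) of 15 genes in each of the 12 libraries; points are libraries in the order of their replicate numbers and bars are group means (Ba Basal, Ea Early, La Late, Re Reactivated). In all 15 the Early and Basal libraries do not overlap, and the level in Late and Reactivated may lie near Early, as in Slc9a2, or elsewhere, as in Baiap3.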

How the data were processed

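The authors deposited a table of counts per gene, with 24015 rows and 12 libraries, made with Bowtie2 2.0, Cufflinks 2.2 and DESeq2 on the mouse build mm9, per the submitters' processing notes, which do not give what each did. Sources used here do not give the strand setting or the annotation, so overlapping and antisense genes cannot be told apart. Its name says normalized, but its values are whole numbers whose totals differ between libraries (4838166 to 10255713 in the 6 used), so they were analysed as raw. Dates stood in place of symbols in 27 rows, which held no more than 0.147% of any library. Groups came from the titles.

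The filter kept genes whose count reached 10 in 3 or more of the 12 libraries. They were tested with the quasi-likelihood test of edgeR 4.0.16 (R 4.3.3), TMM scaling and the 4 group means fitted to all 12 libraries. P-values were two-sided and Benjamini-Hochberg adjusted over 15668 genes, with a threshold of 0.05. They measure the spread between replicate libraries within the 4 groups, and the number of libraries limits their precision. Whether libraries of different groups came from the same pools of mice is not given in the labels. Summed levels of lists took in members below the filter too. They were compared by exact two-sided permutation tests, for which 3 against 3 libraries cannot go below 0.1. The scripts were tested on simulated data. Alternatives were other scalings and filters, DESeq2 1.42.0, limma-voom (limma 3.58.1), the 6 libraries alone, each library left out, a replicate block, the Rn45s share as a covariate and highly abundant RNAs left out.

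Titles share replicate numbers. The main fit did not pair the libraries, and a fit with the replicate number as a block was run as an alternative. No label says what the numbers share. Deviations from the group means of same-numbered Basal and Early libraries were correlated across genes at 0.310, 0.132 and 0.461, all over 0.1. Differently numbered libraries gave -0.378 to 0.209, with Basal 1 and Early 2 (0.209) and Basal 2 and Early 1 (0.152) above Basal 2 and Early 2.

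Among genes that passed, with a mean of at least 50 normalized counts in the higher group and no overlap between groups, the 20 largest changes, 10 lowest p-values and 10 highest levels in each direction could be named, without unnamed gene models, small RNAs and dates. Members of 59 lists (1318 genes) that passed could be named too, with Arc, Fos, Npas4, Egr1, Nr4a1 and Bdnf. Members that did not pass are given as values. The comparison and the lists were chosen with earlier results of these data known. Results for some genes are not reported here.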

Additional observations from a re-analysis of the deposited data

How the results depend on the processing

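The number of genes that passed was 944, and 368 on the counts as deposited without scaling. It ranged from 487 to 1101 when 1 library was left out. The genes higher in Early numbered 527, and 341 with libraries scaled to the same total, 282 without scaling and 253 to 669 when 1 library was left out. The genes lower in Early numbered 417, and 86 without scaling and 228 to 432 when 1 library was left out. With the replicate block (paired fit) 928 genes passed, 866 of them shared, and of the 278 named genes that passed, the block ended the calls of 8 (Cacnb2, Grik1, Grik2, Htr4, Kcnh4, Lhx6, Mycbp2 and Rbfox2) and changed no other call. DESeq2 called 1283 genes. With the Rn45s share in the model 1297 passed. Without Basal 3 and Early 3 together 947 passed (1025 with the block as well, a setting added after seeing the data). With the 6 libraries alone, where Late and Reactivated do not enter the spread, 755 passed, 666 of them among the 944. Rises there numbered 6 for calcium and calmodulin genes (11 in the main fit), 7 for proteoglycans (11) and 4 for glycolysis (7). They were 3 for vesicle release (8) and 0 for heat shock genes (3). Falls were 0 for NMDA and kainate receptor genes (4), and 4 for neuropeptides and granins (2). Bdnf, which did not pass, changed sign without scaling (0.16 on the log2 scale), and its value ranged from -0.13 to 0.083 when 1 library was left out. Of the 278, 110 passed under every setting and 0 changed direction under any of them. Calls ended for 144 without scaling, 52 with libraries scaled to the same total and 65 with the 6 libraries alone. They ended for 100 without Basal 2, 78 without Early 1, 75 without Basal 1 and 20 without Basal 3. The causes were not tested. Genes under 30 normalized counts had a median standard error of 0.55 on the log2 scale, against 0.15 over 1000, so changes under 2-fold were rarely detectable at low levels. Of those under 30, 1.44% were called, with a median absolute log2 fold change of 2.34 among the calls. Changes over 2-fold could therefore also be missed there, and a gene at such levels that did not pass is not shown to be unchanged.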
